A study of Homo sapiens with 6 samples.

Results

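The 10 genes described here encode the cytosolic HSP70 chaperones and their HSP110 relatives, and were taken by gene symbol from a deposited table of 60664 Ensembl genes. They are HSPA1A, HSPA1B, HSPA1L, HSPA2, HSPA6, HSPA8 and HSPA14 of the HSP70 family and HSPA4, HSPA4L and HSPH1 of the HSP110 group, and each symbol matched 1 row. The family was taken up because HSPA8, HSPA1A and HSPA1B were already known to be among the largest rises in the same comparison. Fold changes and calls of the 10 genes are therefore a description, and no p-value is given for any of them.

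Poly-A RNA was sequenced from H7, a long-established line of human embryonic stem cells kept on Matrigel in mTeSR Plus medium, in 6 libraries. The control group held 3 libraries whose genotype label is control, and the other group held 3 libraries labelled SAMD4A knockdown. The sources used here do not give the knockdown construct or say whether the cells came from 1 clone. SAMD4A, an RNA-binding repressor of the Smaug family and the targeted gene, had control levels of 52.2, 56.0 and 49.8 CPM (counts scaled to a library total of 1000000 after correction of that total by its TMM factor) and knockdown levels of 27.4, 28.5 and 28.5 CPM, so the groups did not overlap.

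Library totals ran from 19270688 to 21355171 counts. The summed level of 5 markers of pluripotent cells (POU5F1, SOX2, NANOG, LIN28A, PODXL) was 6086 to 6356 CPM in control and 6102 to 6395 CPM in knockdown, and none of them was at 0. Of the 5 genes 1 was called higher and 2 lower, against 26.1% and 25.6% of all tested genes. The summed level of 5 neuroectoderm markers was 46.5 to 50.4 CPM in control, 46.3 CPM in knockdown replicate 1, and 20.3 and 20.6 CPM in knockdown replicates 2 and 3. Leaving out knockdown replicate 1 ended no call among the 10 genes and added that of HSPA1L. Sums for mesendoderm, endoderm and germ cell markers stayed below 6 CPM in every library, and of these only TNP1 was at 0 in all 6 libraries. The mitochondrial share was 3.39% ± 0.08 for control libraries and 5.03% ± 0.14 for knockdown libraries (SD, n = 3 each). In such bulk RNA, a change in the number of expressing cells and a change in RNA per cell cannot be told apart.

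HSP70 proteins bind short hydrophobic stretches of unfolded proteins and release them in a cycle driven by ATP. J-domain proteins deliver the client and trigger ATP hydrolysis, and exchange factors, among them the HSP110 proteins, remove the ADP so that the client is let go. HSPA8 (HSC70) is the constitutive form that cells make all the time, and besides folding it strips clathrin coats from vesicles and takes part in chaperone-mediated autophagy. HSPA1A, HSPA1B and HSPA6 are switched on by heat and other protein damage through heat shock factor 1 (HSF1), a transcription factor that binds repeats of a short motif, the heat shock element. HSPA2 and HSPA1L are best known from the testis, and HSPA14 works at the ribosome.

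The promoter letters that such factors read are shown first, because they do not depend on the counts. RefSeq promoter windows (GRCh38.p14, 250 bases before to 50 after the start) were held for 9 of the 10 genes, with HSPA14 named only. The heat shock element was searched on both strands as the 2-unit letters GAANNTTC or TTCNNGAA, which are their own reverse complements, and as 3 units, the same letters continued by NNGAA or NNTTC in turn, which contain the 2-unit letters. Of all 35116 promoter windows 13.5% held a 2-unit match and 0.49% a 3-unit match. The 30-base stretches with the matches of HSPA8, HSPA6, HSPA1A and HSPA1B are printed below in the direction of transcription. Capitals mark the matched letters. HSPA1L and HSPA4L also held a 2-unit match, which is described further below and not printed.
HSPA8 far site: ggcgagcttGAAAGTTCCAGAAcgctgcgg
HSPA8 near site: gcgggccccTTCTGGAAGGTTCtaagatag
HSPA6 near site: gcggaaaggTTCGCGAAAGTTCgcggcggc
HSPA6 far site: ccgatctgcccGAACCTTCtcccggggtca
HSPA1A site: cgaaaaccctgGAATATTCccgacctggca
HSPA1B site: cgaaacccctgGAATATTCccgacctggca

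The constitutive gene HSPA8 held 2 separate 3-unit matches, at chr11:123062346-123062375 and chr11:123062171-123062200 on the minus strand, and the inducible HSPA6 held 1, at chr1:161524457-161524486 on the plus strand, besides a 2-unit match at chr1:161524349-161524378. HSPA1A (chr6:31815426-31815455) and HSPA1B (chr6:31827622-31827651), both on the plus strand, each held 1 match of 2 units, and their printed stretches differ at 1 of 30 bases. The match of HSPA1A also falls into the window of HSPA1L, which is transcribed away from it on the minus strand, so these genes share the same letters. HSPA4L had 3 windows, of which 1 held a 2-unit match, and the windows of HSPA2, HSPA4 and HSPH1 held none. The letters CCAAT, the motif of the factor NF-Y, occurred on either strand 2 times each in the windows of HSPA8, HSPA1A, HSPA1B and HSPA1L and 1 time each for HSPA2 and HSPA4L, against 34.6% of all windows with a match. TATAAA, the letters bound by the TATA-binding protein, occurred for HSPA1A, HSPA1B, HSPA1L and HSPA4L and in 11.5% of all windows. The CCAAT and TATAAA matches of HSPA1L are the same genomic letters as those of HSPA1A, and HSPA4L was counted over its 3 windows. A match describes letters in a window and is not a measured binding site. Only exact letters were searched, so elements with a changed letter were not counted for any gene.

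**Figure D1:**
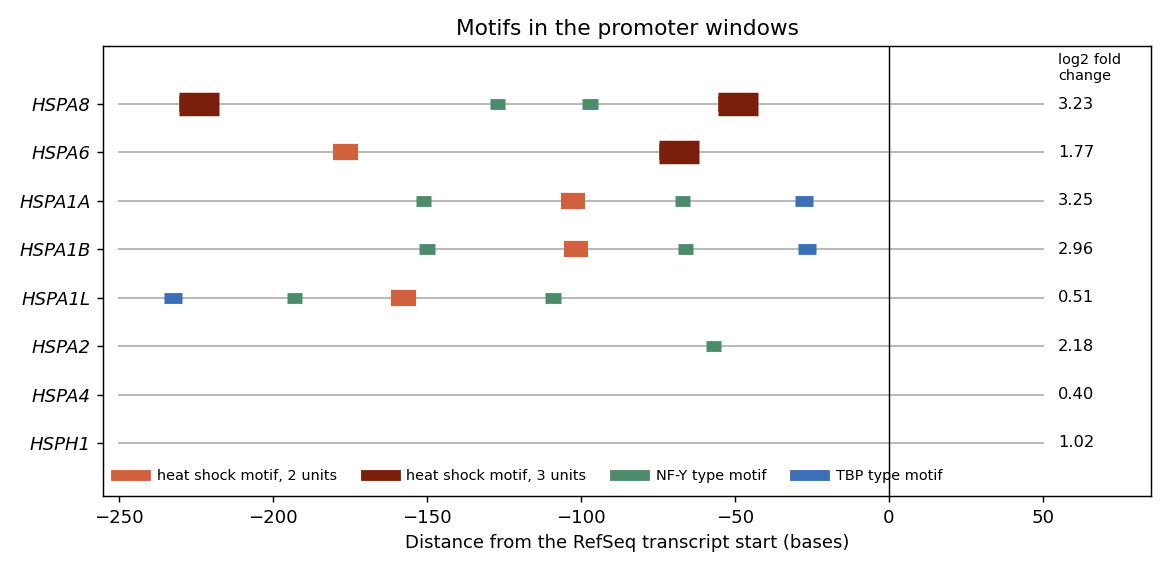
Positions of motifs in the RefSeq promoter windows of 8 genes, in bases from the RefSeq transcript start at 0. Each gene's log2 fold change (knockdown over control) is at the right. HSPA4L (log2 fold change -0.65) has 3 windows, 1 of them with a 2-unit match, and HSPA14 has no window, so neither is drawn. The 3-unit heat shock motif is present in HSPA8 and HSPA6, and the log2 fold changes of the drawn genes run from 0.40 for HSPA4 to 3.25 for HSPA1A.

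Messages of the family took a larger part of the knockdown libraries, and HSPA8 made up most of the gain. The 10 genes together held 0.0986%, 0.103% and 0.107% of the control libraries and 0.325%, 0.351% and 0.339% of the knockdown libraries, with 95% Wilson intervals reaching at most 0.0026 percentage points to either side. These intervals cover counting error only. The mean share went from 0.103% ± 0.0041 to 0.338% ± 0.013 (SD, n = 3 each), a ratio of 3.29. Every knockdown library thus lay above every control library. HSPA8 alone supplied 87.3% of the net gain, HSPH1 5.65% and HSPA4 4.09%. The other 9 genes summed went from 0.0750% ± 0.0038 to 0.105% ± 0.0037, a ratio of 1.40. With mitochondrial counts taken out of the totals the share of the 10 genes was 0.106% in control and 0.356% in knockdown.

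**Figure D2:**
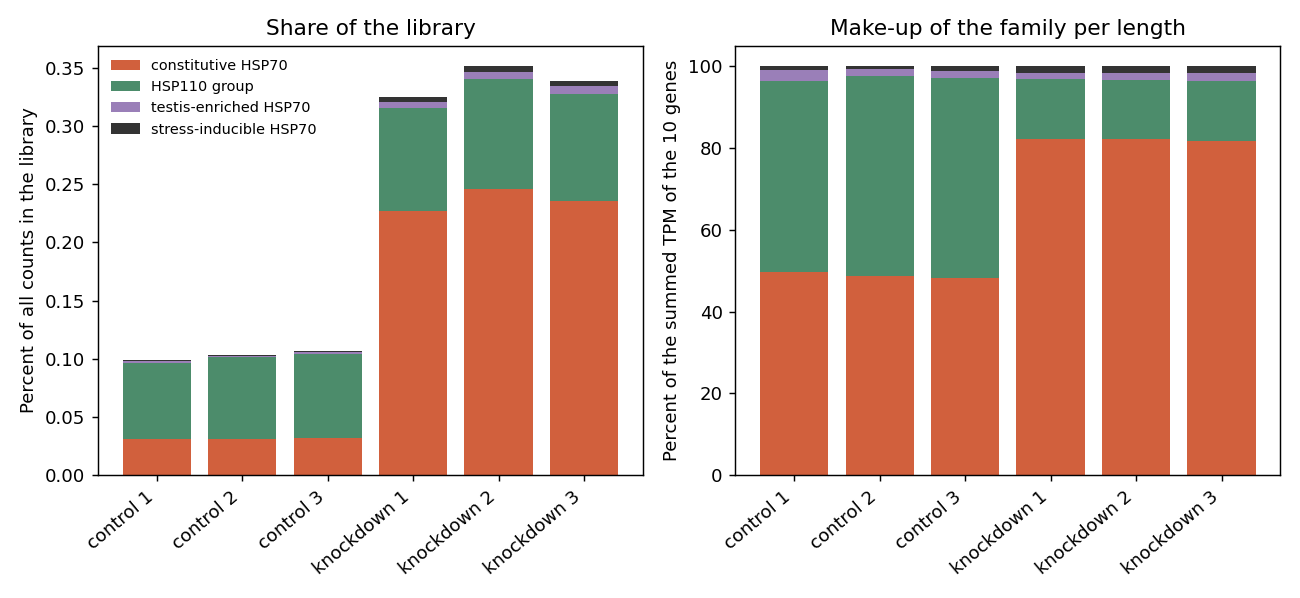
Left, percent of all counts in each of the 6 libraries taken by the 4 classes of the family, stacked; right, the classes as a percent of the family's summed TPM (counts divided by exon length and scaled to a total of 1000000). The 10 genes took about 0.103% of a control library and 0.338% of a knockdown library, and the constitutive class went from 48.9% to 82.1% of the family per length.

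Of the 10 genes, all were tested in the fit across 17258 genes, and 7 passed its threshold (edgeR adjusted p below 0.05) toward higher levels and 2 toward lower levels. Over all tested genes 26.1% were called higher and 25.6% lower, 51.7% in either direction. A call with a rise of at least 2 fold was made for 6 of the 10 genes and for 2.68% of all tested genes. The groups did not overlap for 9 of the 10 genes and for 58.3% of all tested genes. The median log2 fold change was 1.39 over the 10 genes and -0.0090 over all tested genes. As the family was chosen from this comparison, nothing is read from these counts. HSPA6 reached the count filter only through the knockdown libraries.

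**Figure D3:**
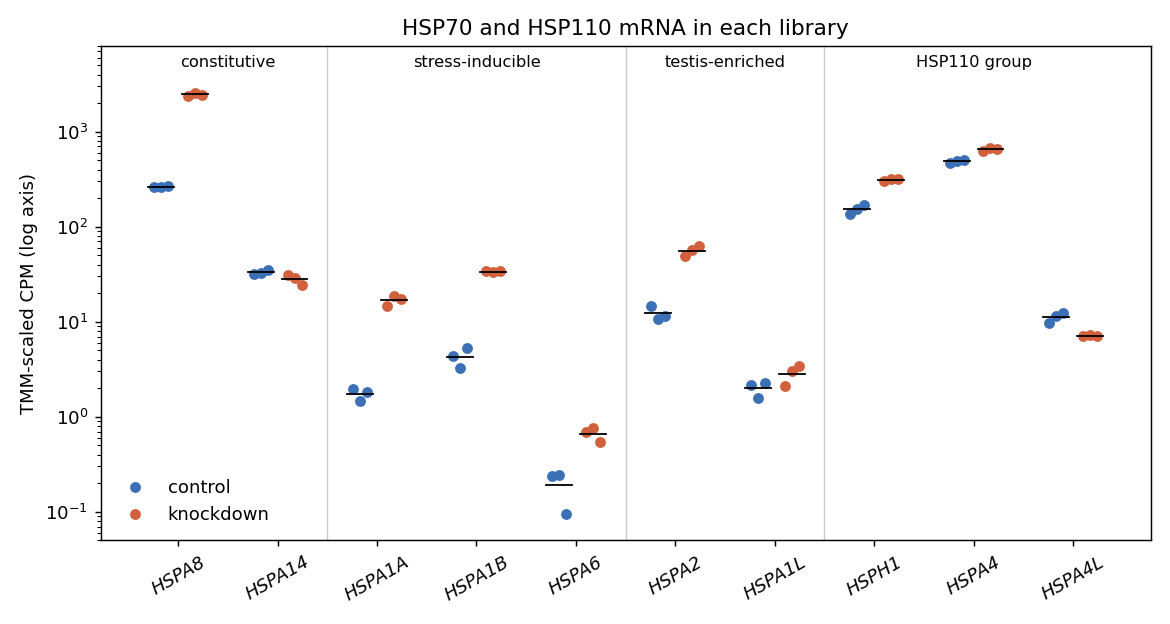
TMM-scaled CPM of the 10 genes on a log axis, with 1 point per library (3 control, 3 knockdown) and a bar at the group mean. The points of the groups overlap for HSPA1L only; HSPA8 went from 264 to 2468 CPM, and HSPA4L and HSPA14 are the genes with lower knockdown levels.

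HSPA8 (ENSG00000109971, chromosome 11, 123057489 to 123063230, minus strand, GRCh38.p13) had the highest level per length of the family and one of its largest changes. It had control levels of 260, 263 and 267 CPM and knockdown levels of 2383, 2557 and 2464 CPM, a 9.36-fold rise (log2 fold change 3.23 ± 0.04, SE). Replicates lay close together in both groups, and the groups lay far apart. Only 3 of the 17258 tested genes had a larger log2 fold change. Ranked by TPM among 19966 protein-coding genes, its mean level moved from place 481 in control to place 51 in knockdown. Of the 150-base windows of its annotated transcripts, the read length of these libraries, 0 of 6496 occurred unchanged in a transcript of another gene in GENCODE 29. The 20 rows of processed copies and pseudogenes of HSPA genes held 26 to 42 counts in all per library, against 5352 to 50256 for HSPA8. Of the 3 small nucleolar RNA genes inside HSPA8, SNORD14E had 0 counts in each control library and 10, 6 and 5 counts in the knockdown libraries, and SNORD14C and SNORD14D had 0 in all 6. SNORD14E lies on the strand of HSPA8, so its few counts cannot be told apart from reads of HSPA8 RNA.

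HSPA14 (ENSG00000187522, chromosome 10, 14838306 to 14871741), the constitutive member of the ribosome-associated chaperone complex, went the other way by a small step. Its levels were 31.9, 32.8 and 35.0 CPM in control and 31.1, 28.8 and 24.6 CPM in knockdown, a log2 fold change of -0.24 ± 0.09. The highest knockdown library was close to the lowest control library. The call was lost under several alternatives, among them DESeq2 and each fit in which any 1 of the 3 control libraries, knockdown replicate 2 or knockdown replicate 3 was left out, at log2 fold changes of -0.14 to -0.27. HSPA14 shares 12.5% of its 150-base transcript windows with an overlapping gene on the same strand (ENSG00000284024), whose own log2 fold change was -0.45 ± 0.09 (edgeR adjusted p = 5.4e-04), so counts of the pair are uncertain as single genes.

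The stress-inducible HSPA1A and HSPA1B rose from a low base. HSPA1A (ENSG00000204389, chromosome 6, 31815543 to 31817946) had control levels of 1.95, 1.48 and 1.85 CPM and knockdown levels of 14.5, 18.7 and 17.3 CPM, a log2 fold change of 3.25 ± 0.16. HSPA1B (ENSG00000204388, chromosome 6, 31827738 to 31830254) had control levels of 4.37, 3.25 and 5.30 CPM and knockdown levels of 33.9, 33.3 and 33.9 CPM, a log2 fold change of 2.96 ± 0.13. Both sets of knockdown libraries lay well above control. The copies encode the same protein, and 63.2% of the 150-base windows of HSPA1A occur unchanged in HSPA1B, so reads of one can be counted to the other or dropped. Another annotated gene on the same strand, ENSG00000285565, overlaps HSPA1B and had 0 counts in every library. Its transcripts hold 27.3% of the windows of HSPA1A and 32.5% of those of HSPA1B. Reads dropped for shared sequence or overlap would leave both levels too low, and summing the copies does not restore them. Summed as 1 gene, HSPA1A and HSPA1B went from 6.06 ± 1.23 to 50.5 ± 1.88 CPM (SD, n = 3 each), which is 3.06 ± 0.12 as a log2 fold change. The log2 ratio of HSPA1A to HSPA1B was -1.28 ± 0.21 in control and -1.01 ± 0.19 in knockdown, with overlapping groups.

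HSPA6 (ENSG00000173110, chromosome 1, 161524540 to 161526894), a strictly heat-induced gene that rodents lack, was barely detected. It had 5, 5 and 2 counts in control and 14, 15 and 10 counts in knockdown, a log2 fold change of 1.77 ± 0.51. The groups did not overlap, but its level in knockdown stayed at 0.667 ± 0.115 CPM (SD, n = 3). The call was lost without control replicate 3, where the log2 fold change was 1.44. HSPA6 shares 15.2% of its transcript windows with the pseudogene HSPA7, which had at most 3 counts in any library.

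Among the testis-enriched members only HSPA2 was called. HSPA2 (ENSG00000126803, chromosome 14, 64535905 to 64546173), a chaperone that male meiosis requires in mice, had control levels of 14.6, 10.7 and 11.5 CPM and knockdown levels of 49.0, 56.3 and 62.3 CPM, a 4.54-fold rise (log2 fold change 2.18 ± 0.12). The lowest knockdown library was over the highest control library by a wide margin. HSPA1L (ENSG00000204390, chromosome 6, 31809619 to 31815283) starts 260 bases from HSPA1A and is transcribed in the opposite direction. It had control levels of 2.14, 1.57 and 2.27 CPM and knockdown levels of 2.09, 3.05 and 3.40 CPM, and did not pass the threshold. Its log2 fold change was 0.51 ± 0.26, with an approximate 95% interval of -0.0037 to 1.02 that does not reach the value of HSPA1A, and it passed without knockdown replicate 1 (0.69). The 6 germ cell and testis markers (DDX4, DAZL, SYCP3, PRM1, TNP1, ACR) summed to 2.33 to 3.10 CPM in control and 1.57 to 2.69 CPM in knockdown, with TNP1 at 0 in every library, and the 1 of them that passed the count filter was not called.

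The HSP110 group, whose proteins release ADP from HSP70 and hold clients themselves, split. HSPH1 (HSP105; ENSG00000120694, chromosome 13, 31134973 to 31162388), its heat-inducible member, had control levels of 138, 156 and 169 CPM and knockdown levels of 303, 320 and 316 CPM, a 2.03-fold rise (log2 fold change 1.02 ± 0.06). HSPA4 (ENSG00000170606, chromosome 5, 133052013 to 133106449), the abundant constitutive member, had control levels of 469, 498 and 509 CPM and knockdown levels of 631, 666 and 654 CPM, a 1.32-fold rise (log2 fold change 0.40 ± 0.04, and 0.25 when scaled by total counts only). Neither gene had overlapping groups. HSPA4L (ENSG00000164070, chromosome 4, 127781821 to 127840733), named for its likeness to HSPA4, fell from 9.65, 11.5 and 12.4 CPM to 7.02, 7.33 and 7.07 CPM (log2 fold change -0.65 ± 0.13). It is the one member with a fall that kept its call under every alternative run.

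Set side by side, the summed inducible HSP70 counts and those of HSPA8 changed in nearly the same proportion. HSPH1 gained on HSPA4 and HSPA14. For each HSPA8 count there were 0.0234 counts of HSPA1A, HSPA1B and HSPA6 together in control and 0.0207 in knockdown. The log2 ratio was -5.31, -5.73 and -5.21 in control and -5.60, -5.60 and -5.57 in knockdown, so the knockdown values fell within the control range. As shares of all counts, the inducible class went from 0.00066% ± 0.000123 to 0.00484% ± 0.000205 and the constitutive class of HSPA8 and HSPA14 from 0.0313% ± 0.00046 to 0.236% ± 0.0095 (SD, n = 3 each), ratios of 7.34 and 7.54. HSPA8 sets the constitutive value, since its own ratio was 8.39 while that of HSPA14 was 0.76. The inducible counts are nearly all from HSPA1A and HSPA1B, with ratios of 8.59 and 7.01, against 3.10 for HSPA6. Other genes share 63.2% and 70.0% of the 150-base windows of these genes, against 0 of 6496 for HSPA8. The inducible share and its ratio to HSPA8 may therefore be too low in both groups. The ratio of HSPH1 to HSPA4 and HSPA14 summed went from 0.293 to 0.461, with log2 values of -1.77 ± 0.09 and -1.12 ± 0.01 and no overlap.

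Levels per length, given as TPM from the deposited exon lengths, put HSPA8 and HSPA4 near each other in control and far apart in knockdown. HSPA8 was at 294 ± 4.26 TPM and HSPA4 at 260 ± 11.3 TPM in control, and they were at 2342 ± 107 and 293 ± 11.1 TPM in knockdown (SD, n = 3 each). HSPA8 therefore made up 42.1% ± 0.85 of the family's TPM in control and 80.9% ± 0.18 in knockdown, and HSPA4 37.2% ± 0.48 and 10.1% ± 0.08. Behind them in control came HSPH1 at 74.3, HSPA14 at 47.6, HSPA2 at 12.4, HSPA1B at 4.32, HSPA4L at 2.66, HSPA1A at 1.85, HSPA1L at 1.82 and HSPA6 at 0.207 TPM. Only HSPA1A and HSPA1L overlapped among neighbours in that order. In knockdown HSPH1 was at 128 TPM, HSPA2 (48.1 TPM) stood ahead of HSPA14 (34.3 TPM), and HSPA1B (28.8 TPM) and HSPA1A (15.1 TPM) ahead of HSPA1L (2.22 TPM) and HSPA4L (1.45 TPM), with HSPA6 last (0.608 TPM) and no overlap between neighbours. The places of HSPA1A and HSPA1B rest on reads that their shared sequence makes uncertain.

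Partners of HSP70 outside the family were mostly higher too, by smaller steps. Over 6 lists of cochaperones, organelle relatives, heat shock factors and response genes, each gene counted once, 31 of 51 tested genes were higher (60.8%, against 26.1% of all tested genes) and 5 lower (9.80%, against 25.6%). The median log2 fold change was 0.36, against -0.0090 over all tested genes. Small rises depend on the scaling, and with total counts only 27 of these genes were higher and 10 lower. These lists were also made with earlier results known, and list counts carry no test of their own.

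Exchange factors other than HSP110 moved both ways, with 3 of 6 higher and 2 lower, against 26.1% and 25.6% of all tested genes. HSPBP1, which opens the HSP70 nucleotide cleft, rose from 34.6 ± 1.58 to 64.1 ± 4.31 CPM (log2 fold change 0.89 ± 0.07, edgeR adjusted p = 8.1e-08). BAG3, an exchange factor that links HSP70 to autophagy, rose by 0.53 ± 0.08 and BAG1 by 0.51 ± 0.08 on the log2 scale (edgeR adjusted p = 2.9e-05 and 4.8e-05). BAG2 fell by 0.24 (0.0096) and BAG4 by 0.18 (0.042), and BAG5 did not pass at -0.11 (0.20). The 3 rises were thus of 0.51 to 0.89, beside 1.02 for HSPH1; whether they differ from it was not tested.

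Among adaptors and the ligase of HSP70, 6 of 8 rose and 0 fell, against 26.1% and 25.6% of all tested genes. ST13, which steadies the ADP-bound state, rose by 0.42 ± 0.05 on the log2 scale (edgeR adjusted p = 2.6e-06), and STIP1, which joins HSP70 to HSP90, by 0.40 ± 0.04 (1.4e-06). SGTA rose by 0.39, TOMM70 by 0.37, TOMM34 by 0.37 and the ubiquitin ligase STUB1, which marks HSP70 clients for breakdown, by 0.30. DNAJC7 (0.07) and SGTB (-0.29) did not pass. The 6 rises were alike in size, between 0.30 and 0.42.

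J-domain partners included the largest rises among the cochaperones. Of 12 genes 5 rose and 1 fell, against 26.1% and 25.6% of all tested genes. DNAJA1, a class A partner of HSPA8, rose from 77.3 ± 4.42 to 229 ± 8.01 CPM (log2 fold change 1.56 ± 0.05, edgeR adjusted p = 1.05e-11), and DNAJB1, the heat-inducible HSP40, from 43.5 ± 1.92 to 103 ± 3.65 CPM (1.25 ± 0.06, 2.4e-10). DNAJB6, which holds back aggregation, rose by 0.43 (7.1e-07), and GAK, which recruits HSPA8 to clathrin coats, rose by 0.36 (9.9e-05). DNAJB2 fell by 0.60 (1.9e-05). DNAJC6, the neuronal counterpart of GAK (0.23, 0.21), and DNAJC2, the ribosomal partner of HSPA14 (0.03, 0.67), did not pass, nor did DNAJB5 (-0.01, 0.91). Each pair gives the log2 fold change and the edgeR adjusted p. GAK and DNAJC6 were named after their values were seen, so their p-values are descriptive only.

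Relatives in other compartments did not share 1 direction. HSPA5, the HSP70 of the endoplasmic reticulum, rose from 400 ± 21.6 to 1021 ± 19.1 CPM (log2 fold change 1.35 ± 0.05, edgeR adjusted p = 1.01e-11), and HYOU1, its HSP110-like exchange factor, by 0.21 ± 0.04 (4.4e-04). As TPM, which do not use the TMM factors, HYOU1 was at 240 ± 4.96 in control and 237 ± 2.46 in knockdown. HSPA9, the mitochondrial HSP70, fell from 932 ± 22.1 to 775 ± 21.5 CPM (-0.27 ± 0.04, 6.2e-05). HSPA13 did not pass at -0.04 (0.65).

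Neither heat shock factor that was tested passed the threshold. HSF1 was at 93.7 ± 4.87 CPM in control and 85.3 ± 5.33 CPM in knockdown and did not pass (log2 fold change -0.14 ± 0.06, edgeR adjusted p = 0.075), nor did HSF2 (-0.01, 0.93). HSBP1, a small protein that binds HSF1, rose by 0.33 ± 0.05 (4.6e-05), and HSF4 was below the count filter. Of 22 heat shock response genes outside the family 18 were higher and 1 lower, with a median of 0.55. Over all tested genes 26.1% were higher and 25.6% lower. The 3 largest rises were DNAJA1, DNAJB1 and AHSA1, an activator of HSP90 that rose by 1.13 ± 0.05 (1.3e-10). The 3 lowest values were those of ZFAND2A, which fell from 11.9 ± 0.92 to 3.68 ± 0.27 CPM (-1.69 ± 0.14, 1.3e-07), and of CRYAB (-0.50, 0.26) and PPID (-0.11, 0.088), which did not pass.

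**Figure D4:**
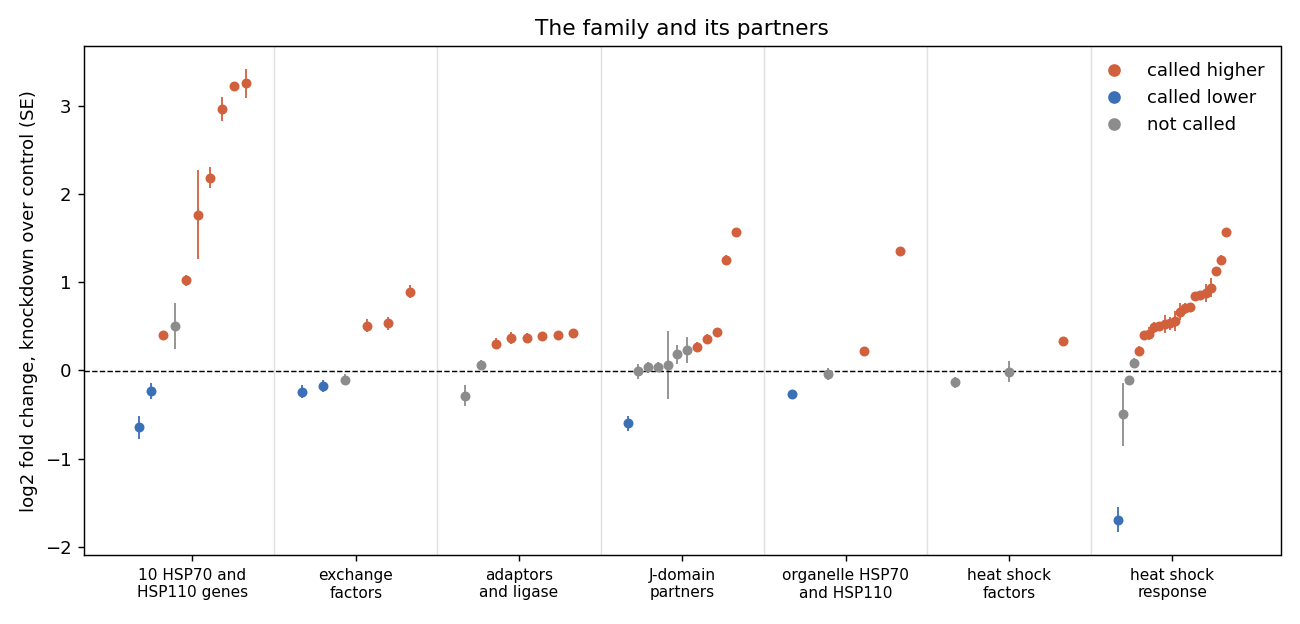
Log2 fold change (knockdown over control) with its SE for the 10 genes and for tested genes of the 6 partner lists, coloured by the edgeR call, with the median of all tested genes as a dashed line. DNAJA1, DNAJB1 and AHSA1 appear in the heat shock response list, the first 2 also among J-domain partners, and ZFAND2A is the lowest point at -1.69.

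Genes lying near the members went both ways. Within 100 kb of the 10 genes, with each neighbour counted once and members left out, 8 of 32 tested genes were higher (25.0%, against 26.1% of all tested genes) and 12 lower (37.5%, against 25.6%). Near HSPA8 the tested neighbours were CLMP, a cell adhesion gene that fell by 0.55 ± 0.07 on the log2 scale (edgeR adjusted p = 1.5e-05), and JHY, which fell by 1.73 ± 0.35 (7.1e-04). Of 11 tested neighbours of HSPA1A, HSPA1B and HSPA1L in the major histocompatibility region 5 rose and 2 fell. NEU1, a lysosomal sialidase, rose by 0.80 ± 0.07 (edgeR adjusted p = 2.8e-07). The noncoding RNA SNHG32, which starts 4354 bases beyond HSPA1B on the same strand, fell by 1.68 ± 0.09 (edgeR adjusted p = 1.3e-09). The neighbours named here were picked after their values were seen, so their p-values are descriptive only.

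Outside the family, whose members were left out of this ranking, the genes most like HSPA8 over the 6 libraries, by the root mean square difference of log2 CPM centred on the control mean among 10329 tested genes whose mean over the 6 libraries reached 10 CPM, were GDF3 (0.19), HMGCS1 (0.37), the noncoding RNA ENSG00000282048 (0.46), INSIG1 (0.63) and MSMO1 (0.80). GDF3 and ENSG00000282048 met the 10 CPM limit only through the knockdown libraries, with control means of 2.12 and 7.25 CPM. GDF3 is a TGF-beta family ligand, and HMGCS1, INSIG1 and MSMO1 belong to sterol synthesis and its control. The log2 fold changes of the 5 genes were 3.09, 2.79, 2.90, 2.34 and 2.10 in the order first given, all below the 3.23 of HSPA8. Genes most like HSPH1 were CENPI (0.046), PNRC2 (0.059), DEGS1 (0.060), EIF2A (0.061) and DHX9 (0.068), with log2 fold changes between 0.95 and 1.07.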

How the data were processed

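Poly-A RNA (TruSeq Stranded mRNA kit, paired reads of 150 bases, per the labels' protocols) was measured in 3 control and 3 knockdown libraries. The authors deposited raw counts per Ensembl gene with symbols, exon lengths and GRCh38.p13 coordinates; HISAT2, HTSeq and GRCh38 are named in the submitters' processing notes, while versions, strand setting and handling of multiply mapped reads are not given. Samples were grouped by title, and no label says that replicates were separate cultures, so spread and p-values measure only these samples.

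Counts were analysed in R 4.3.3 with edgeR 4.0.16 (filterByExpr, TMM, quasi-likelihood test, two-sided, Benjamini-Hochberg over 17258 genes, threshold 0.05). CPM are TMM-scaled, and each SE is the log2 fold change over the root of its F statistic. TPM used deposited exon lengths. Counts of replicates differed beyond sampling noise (chi-square per degree of freedom 2.78 to 7.85 within groups), so none was merged. Members, lists, classes and motifs were chosen with earlier results of these data known. Named genes are the 10 members, SAMD4A, genes of lists of up to 8, the 3 highest and 3 lowest of longer lists and the 5 genes most like HSPA8 and HSPH1; GAK, DNAJC6 and the neighbours were named after their values were seen. Alternatives were DESeq2 1.42.0, limma-voom (limma 3.58.1), other scaling factors and filters, a replicate block, each library left out, HSPA1A and HSPA1B summed, and HSPA8 summed with its copies.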

Additional observations from a re-analysis of the deposited data

How the results depend on the processing

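Of 157 repeats of the 10 genes' fold changes under the alternatives, 148 kept direction and side of the threshold, 8 lost a call and 1 gained one, with no reversal. The number of members called higher was 6 to 8, against 7. The number called lower was 1 instead of 2 with DESeq2 and with the replicate block, and 1 to 2 with each library left out, through HSPA14, at log2 fold changes of -0.23 with DESeq2, -0.24 with the block and -0.14 without knockdown replicate 3. HSPA6 lost its call without control replicate 3 (log2 fold change 1.44), and HSPA1L passed without knockdown replicate 1 (0.69); the causes were not tested. HSPA8 ran from 3.07 to 3.26, HSPA1A from 3.10 to 3.35 (3.06 when summed with HSPA1B) and HSPH1 from 0.86 to 1.09. With total counts only the median over tested genes was -0.17 instead of -0.0090, and 2704 genes were higher instead of 4503. In that setting 27 partner genes were higher instead of 31, and 10 were lower instead of 5. With upper-quartile factors and with the stricter filter 8 partner genes were lower. The family's share was 0.356% in knockdown without mitochondrial counts, and 0.0700% in control and 0.289% in knockdown per exon length. Per exon length the log2 ratio of inducible HSP70 to HSPA8 was -5.72 in knockdown, and that of HSPH1 to HSPA4 and HSPA14 was -2.06 in control and -1.35 in knockdown. Same-numbered libraries did not deviate together (correlations of -0.029, 0.039 and -0.081), so the replicate block rests on a shared number only, and not every library correlated best with its own number. Depth limits HSPA6, with 12 control and 39 knockdown counts in all.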
